A study of Rattus norvegicus with 12 samples.

Results

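The genes described here move iron and heme through the cell. They are 10 symbols taken by name: the heme-degrading enzyme gene Hmox1, the iron exporter gene Slc40a1, the transferrin receptor gene Tfrc, the divalent metal transporter genes Slc11a1 and Slc11a2, the metalloreductase family genes Steap1, Steap3 and Steap4, the hepcidin gene Hamp, and the ferritin heavy chain gene Fth1. They account for 10 of the 22132 entries that list control and adenine rats and for 11 of 32623 entries in the sham and UUO table, where Slc40a1 is listed with 2 entries. The members were not chosen by a threshold on these values, but earlier results of these data were known when they were chosen.

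RNA was sequenced from whole kidney tissue of 12 male wild-type Sprague Dawley (SD) rats, 3 rats in each of 4 groups, bought at 8 weeks of age. The adenine rats were gavaged for 3 weeks with adenine, a daily dose of 220 mg/kg, and the control rats were gavaged with saline. In the UUO group the left ureter was ligated (unilateral ureteral obstruction) and kidneys were taken after 2 weeks, and sham rats had surgery without ligation. Both are models of renal fibrosis, one chemical and one surgical, and no group carries a transgene. The kidney was sequenced whole, so each value averages over tubule, vessel, glomerular and immune cells, and fewer cells of a type cannot be told apart from less RNA per cell.

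Iron circulates bound to transferrin, which cells take up through the transferrin receptor. In the endosome, a STEAP reductase converts ferric to ferrous iron, and a divalent metal transporter passes it to the cytosol, where ferritin stores what is not used. Ferroportin, the product of Slc40a1, is the iron exporter of mammalian cells, and the liver hormone hepcidin closes it. Macrophages recover iron from the heme of old red cells with heme oxygenase 1, and the proximal tubule of the kidney takes up iron and heme proteins that pass the glomerular filter. Iron regulatory proteins stabilise the Tfrc transcript and block ferritin translation when iron is scarce, so the ferritin transcript level is not a measure of ferritin protein.

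Promoter sequences were read from RefSeq (build GRCr8), which held 7 of the 10 members in 8 entries. Those of Tfrc, Steap4 and Steap1 are shown, since Tfrc was lower and both Steap genes were higher in each model, and each covers the 250 bases just upstream of the annotated start, 5′ to 3′ on the strand of the gene. Capitals mark matches, on either strand, to the 5 short motifs searched: the hypoxia response core ACGTG, the antioxidant response core TGACNNNGC, the AP-1 site TGANTCA, the C/EBP site TTNNGNAA and the NF-kB site, GGGNN followed by TTTCC. The Tfrc window lies at chr11:81690319-81690568 on the minus strand, the Steap4 window at chr4:27054770-27055019 on the minus strand, and the Steap1 window at chr4:29231559-29231808 on the plus strand.
Tfrc: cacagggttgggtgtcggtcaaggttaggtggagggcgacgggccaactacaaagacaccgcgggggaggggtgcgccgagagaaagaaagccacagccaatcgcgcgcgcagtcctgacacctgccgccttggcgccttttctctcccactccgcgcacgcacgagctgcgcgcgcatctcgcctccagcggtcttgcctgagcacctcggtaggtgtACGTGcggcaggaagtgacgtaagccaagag
Steap4: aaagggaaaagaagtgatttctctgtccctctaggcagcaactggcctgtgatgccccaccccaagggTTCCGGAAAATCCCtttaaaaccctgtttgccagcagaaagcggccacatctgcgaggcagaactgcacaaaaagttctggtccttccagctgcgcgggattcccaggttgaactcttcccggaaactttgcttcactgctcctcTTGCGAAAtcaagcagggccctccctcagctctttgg
Steap1: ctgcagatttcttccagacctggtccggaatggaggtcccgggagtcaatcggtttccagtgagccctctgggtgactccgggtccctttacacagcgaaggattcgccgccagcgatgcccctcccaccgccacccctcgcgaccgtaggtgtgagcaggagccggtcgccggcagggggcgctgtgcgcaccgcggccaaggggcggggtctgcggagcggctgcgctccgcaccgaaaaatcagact

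The Tfrc window held 1 match, ACGTG from -31 to -27 relative to the start, and 16.6% of the 33469 promoters in the RefSeq set held that core. In the Steap4 window, C/EBP matches stood at -182 to -175 and at -37 to -30, a motif found in 37.2% of promoters. A reverse-strand match to the NF-kB motif lay at -178 to -169, overlapping the first of these, and 1.3% of promoters held one. None of the 5 motifs was found in the Steap1 window. No window of the 7 members with an entry held the antioxidant response core, which 10.1% of promoters had. Hmox1, Slc11a1 and Fth1 had no promoter entry and were not searched. The Hamp promoter held the AP-1 motif at -107 to -101, against 6.34% of all promoters. These matches describe letters in the sequence, and binding was not measured.

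Expression was deposited as FPKM, fragment numbers adjusted for transcript length and library size, and the number of reads behind them is unknown. Changes were tested in each table separately with limma on log2(FPKM + 0.1), for entries that reached 0.5 FPKM in 3 or more of the 6 samples. The text writes rose or fell for a Benjamini-Hochberg adjusted p under 0.05 over all tested entries, and DEG for such a gene whose absolute log2 fold change was at least 2. Over all tested entries the median log2 fold change was 0.30 for adenine and 0.62 for UUO, and after median-of-ratios scaling it was 0.01 and 0.03. This shift moved the DEGs of the adenine model from 1604 higher and 756 lower to 1311 and 957, and those of the UUO model from 1980 and 633 to 1249 and 954, so the scaled value is given wherever it alters the call of a named iron or heme gene. Where a pair of log2 fold changes is given for a gene with no model named, the adenine value comes first.

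In the adenine model, 9 of the 10 members passed the filter, and 4 were DEGs, all higher, in a table where 15.7% of tested entries were DEGs, 10.7% higher and 5.03% lower. In all, 5 rose and 1 fell, and of all tested entries 39.6% rose and 19.9% fell, together 59.4%. The groups did not overlap for 7 members, against 68% of entries. Of the 11 UUO entries, 9 passed the filter and 3 were DEGs, all higher, beside 17.4% of tested entries that were DEGs, 13.2% higher and 4.21% lower. Here 5 rose and 2 fell, against 56.1% and 14.4% of tested entries, together 70.5%, and 8 entries had groups without overlap, against 75.7%. The members that passed had a median log2 fold change of 1.00 for adenine and 0.64 for UUO. Since the set was chosen with earlier results known, these counts are descriptive.

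**Figure D1:**
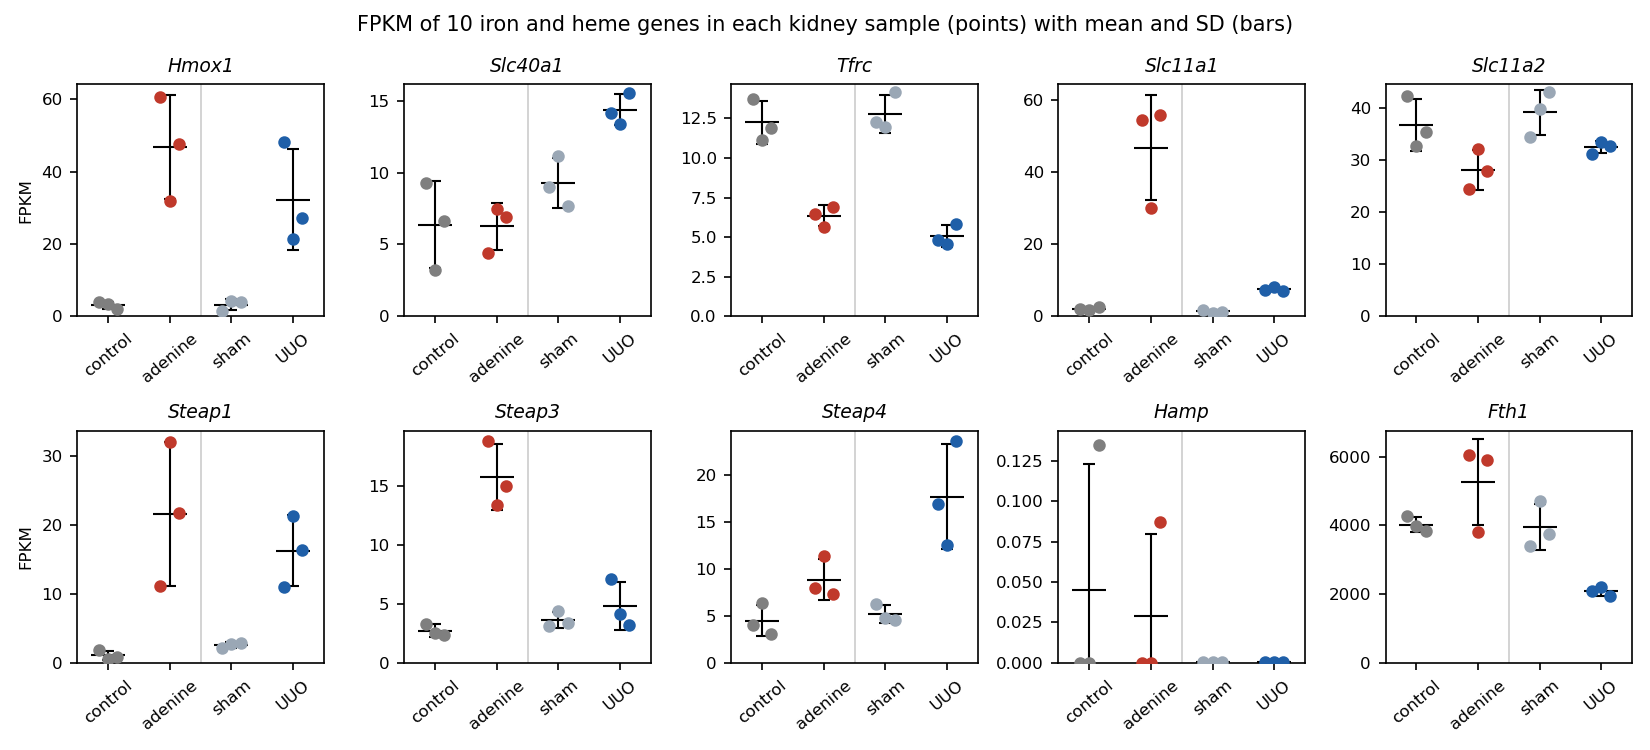
FPKM (vertical axis, linear, from 0, own scale in each panel) of the 10 genes in each of 3 rats per group (points), with the group mean and SD (bars), for control, adenine, sham and UUO kidneys. Hmox1, Slc11a1 and Steap1 stand above their controls in every adenine and UUO rat, Tfrc stands below them, and Hamp does not exceed 0.135 FPKM; Slc40a1 is drawn from its first entry in the UUO table.

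Heme is opened by heme oxygenase 1, which releases iron, carbon monoxide and biliverdin, and its gene Hmox1 was among the largest changes of the set. Hmox1 stood at 3.86, 3.36 and 1.9 FPKM in the control rats and at 60.7, 32.0 and 47.5 FPKM in the adenine rats. The lowest adenine rat was above the highest control rat, and the mean went from 3.04 ± 1.02 to 46.7 ± 14.4 FPKM (SD, n = 3), 15.4-fold. The log2 fold change was 3.91 (SE 0.33, adjusted p = 0.000143 in limma), a DEG. Among the tested entries of each sample, Hmox1 ranked between the 26.4 and 39.5 percentiles in control kidneys and between the 85.0 and 93.1 percentiles in adenine kidneys.

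After obstruction, Hmox1 was at 1.34, 4.25 and 3.86 FPKM in sham rats and at 48.2, 21.5 and 27.2 FPKM in UUO rats. Every UUO rat was again above every sham rat, with means of 3.15 ± 1.58 and 32.3 ± 14.0 FPKM, 10.2-fold. The log2 fold change of Hmox1 was 3.39 (SE 0.49, adjusted p = 0.000826 in limma) and stayed a DEG under median-of-ratios scaling at 2.80. The UUO rat with the highest Hmox1, replicate 1, was also the rat with the highest sum of erythroid markers, 6530 FPKM against 865 and 1891 FPKM in the other UUO rats. Leaving out any 1 of the 6 rats kept the log2 fold change of Hmox1 between 2.88 and 3.68. The part of blood in the kidneys was not tested.

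The constitutive isoform of the enzyme moved the other way. Hmox2 was at 42.3, 44.5 and 52.1 FPKM in control rats and at 26.8, 30.6 and 27.4 FPKM in adenine rats, with no overlap. It fell, with a log2 fold change of -0.71 (SE 0.12, adjusted p = 0.00222 in limma) in the adenine model and of -0.49 (SE 0.12, adjusted p = 0.0106) in the UUO model, where sham rats had 57.6 to 71.1 and UUO rats 40.2 to 51.7 FPKM. The UUO call was lost with FPKM set to the same sum in every sample (-0.27, adjusted p = 0.0893). The ratio of Hmox2 to Hmox1 was between 11 and 27.4 in control rats and between 0.442 and 0.958 in adenine rats. The same ratio was 14.9 to 53.2 in sham and 0.946 to 2.41 in UUO kidneys. A factor that rescales a whole sample leaves such a ratio as it is, and 3 rats against 3 cannot give an exact permutation p below 0.1.

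Biliverdin reductase A, which reduces the biliverdin made by both oxygenases, was lower. Blvra was at 81.6, 256 and 115 FPKM in control rats and at 53.8, 34.1 and 48.3 FPKM in adenine rats, and it fell by 1.58 on the log2 scale (SE 0.42, adjusted p = 0.0151 in limma). With UUO, Blvra went from between 124 and 187 FPKM to between 31.8 and 36.7 FPKM, a DEG with a log2 fold change of -2.09 (SE 0.16, adjusted p = 6.91e-05). Blvrb, which encodes the other biliverdin reductase, did not pass the test in either model, at 0.38 and 0.37.

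Tfrc, the receptor that carries transferrin-bound iron into the cell, was lower in both models. Tfrc was at 13.7, 11.1 and 11.9 FPKM in control rats and at 6.48, 5.64 and 6.92 FPKM in adenine rats. The groups were well apart, and the mean went from 12.2 ± 1.35 to 6.35 ± 0.653 FPKM (SD, n = 3). Tfrc fell by 0.94 on the log2 scale (SE 0.14, adjusted p = 0.00142 in limma). Of the surgical groups, Tfrc was at 12.3, 12 and 14.2 FPKM in sham rats and at 4.81, 4.54 and 5.85 FPKM in UUO rats, with means of 12.8 ± 1.19 and 5.07 ± 0.689 FPKM. The log2 fold change was -1.32 (SE 0.14, adjusted p = 0.000219), and Tfrc was a DEG in neither model.

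The ligand of that receptor was higher in both models. Tf, the transferrin gene, was at 26.7, 68.7 and 40.4 FPKM in control rats and at 111, 113 and 146 FPKM in adenine rats, without overlap. Its log2 fold change was 1.54 (SE 0.33, adjusted p = 0.00670 in limma) in the adenine model and 1.59 (SE 0.27, adjusted p = 0.00190) in the UUO model, where it went from between 38.0 and 61.8 to between 109 and 192 FPKM.

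STEAP proteins reduce iron and copper at membranes. Steap3 is the reductase of the transferrin endosome, Steap4 is a reductase known for its response to inflammatory cytokines, and Steap1 lacks the reductase domain that the others carry. Steap1 was at 1.80, 0.483 and 0.879 FPKM in control rats and at 11, 31.9 and 21.7 FPKM in adenine rats. The adenine rats spread widely and all stood above the control rats, 20.4-fold in the mean, with a log2 fold change of 4.27 (SE 0.53, adjusted p = 0.000657 in limma). In sham rats Steap1 was at 2.11, 2.73 and 2.84 FPKM and in UUO rats at 11, 21.3 and 16.4 FPKM, 6.33-fold, with a log2 fold change of 2.57 (SE 0.26, adjusted p = 0.000172). Steap1 was a DEG in both models, although its value of 1.99 in the UUO model after median-of-ratios scaling falls just under the fold threshold, as does 1.9 under quantile normalization.

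Steap3 separated the models. It was at 3.31, 2.52 and 2.33 FPKM in control rats and at 18.8, 13.4 and 15.0 FPKM in adenine rats, a 5.78-fold higher mean. This was a DEG at a log2 fold change of 2.49 (SE 0.19, adjusted p = 0.000113 in limma). Steap3 was at 3.12, 4.40 and 3.34 FPKM in sham rats and at 7.09, 4.10 and 3.18 FPKM in UUO rats. These ranges overlap, and the log2 fold change of 0.33 (SE 0.31, adjusted p = 0.364) turned to -0.26 under median-of-ratios scaling and to -0.43 under quantile normalization. The change in the UUO model was smaller than in the adenine model by 2.16 on the log2 scale (SE 0.36, adjusted p = 0.00145).

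Steap4 rose in both models, less firmly with adenine. In control rats it was at 4.06, 6.35 and 3.09 FPKM and in adenine rats at 7.96, 11.4 and 7.29 FPKM, a log2 fold change of 1.00 (SE 0.30, adjusted p = 0.0241 in limma). The groups are apart by less than 1 FPKM, and the call was lost with median-of-ratios scaling (0.71, adjusted p = 0.0844), with quantile normalization (0.63, adjusted p = 0.115), and without control replicate 1 (0.96), control replicate 3 (0.77) or adenine replicate 2 (0.81). Steap4 was at 6.24, 4.73 and 4.53 FPKM in sham rats and at 16.9, 12.5 and 23.7 FPKM in UUO rats, 3.43-fold, with a log2 fold change of 1.72 (SE 0.25, adjusted p = 0.000859). The difference between the models, 0.72 (SE 0.39, adjusted p = 0.178), did not pass the test.

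The divalent metal transporters behaved unlike each other. Slc11a1 encodes NRAMP1, which pumps metal out of the phagosomes of macrophages and neutrophils. It was at 1.91, 1.72 and 2.53 FPKM in control rats and at 54.3, 30.0 and 55.8 FPKM in adenine rats. The means were 2.05 ± 0.425 and 46.7 ± 14.4 FPKM (SD, n = 3), 22.8-fold, and the log2 fold change of 4.41 (SE 0.27, adjusted p = 5.62e-05 in limma) was the largest of any member. Between sham and UUO rats the change was smaller: Slc11a1 was at 1.81, 0.982 and 1.19 FPKM in sham rats and at 7.38, 8.19 and 6.90 FPKM in UUO rats. All 3 UUO rats were higher, 5.64-fold in the mean, with a log2 fold change of 2.45 (SE 0.24, adjusted p = 0.00015). It was a DEG in both models, but not in the UUO model after median-of-ratios scaling, where its log2 fold change was 1.87, or under quantile normalization, where it was 1.66.

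Slc11a2 encodes DMT1, which moves ferrous iron out of endosomes and across the apical membrane of epithelia. It was at 42.3, 32.6 and 35.4 FPKM in control rats and at 24.4, 32.1 and 27.8 FPKM in adenine rats. The groups came within 1 FPKM of each other, and the log2 fold change of -0.39 (SE 0.15) had a limma adjusted p of 0.0580. In sham rats Slc11a2 was at 34.4, 39.8 and 43.1 FPKM and in UUO rats at 31.1, 33.5 and 32.7 FPKM, a log2 fold change of -0.26 (SE 0.10, adjusted p = 0.0553). After median-of-ratios scaling both values passed the test, at -0.68 (adjusted p = 0.00531) and -0.86 (adjusted p = 0.00053). The adenine value also passed without control replicate 2 (-0.47) or adenine replicate 2 (-0.49), and the UUO value without sham replicate 1 (-0.35). Control kidneys held 14.0 to 22.2 times as much Slc11a2 as Slc11a1 in FPKM, whereas the ratio in adenine kidneys was 0.449 to 1.07. It was 19.0 to 40.6 in sham and 4.09 to 4.75 in UUO kidneys.

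Slc40a1, the gene of the exporter ferroportin, did not pass the test in the adenine model, and its call in the UUO model was lost with scaling. It was at 9.27, 3.21 and 6.63 FPKM in control rats and at 4.41, 7.46 and 6.94 FPKM in adenine rats. The ranges overlap, and the log2 fold change was 0.07 (SE 0.40, adjusted p = 0.899 in limma), with a sign that changed under scaling. In the UUO table the first Slc40a1 entry was at 8.99, 11.2 and 7.71 FPKM in sham rats and at 14.2, 13.4 and 15.5 FPKM in UUO rats, 1.55-fold, with a log2 fold change of 0.64 (SE 0.15, adjusted p = 0.00859). That value is near the median of 0.62 of all entries, and the call was lost after median-of-ratios scaling (0.04, adjusted p = 0.837) and quantile normalization (0.08, adjusted p = 0.663). The second entry was listed at 0.0001 FPKM, the lowest value of the table, in all 6 rats and was not tested.

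The ferroxidases that load exported iron onto transferrin were higher in both models. Heph, the membrane-bound hephaestin, was at 1.70, 2.12 and 1.66 FPKM in control and at 9.70, 10.3 and 11.9 FPKM in adenine rats, a log2 fold change of 2.48 (SE 0.16, adjusted p = 6.43e-05 in limma). Heph with UUO went from between 2.02 and 2.45 to between 10.6 and 13.9 FPKM, with a log2 fold change of 2.41 (SE 0.15, adjusted p = 3.47e-05). Ceruloplasmin is the secreted ferroxidase of plasma, and its gene Cp went from between 8.18 and 14.3 to between 62.4 and 106 FPKM in the adenine model, at 2.87 (SE 0.28, adjusted p = 0.000266). With UUO, Cp went from between 8.72 and 11 to between 96.1 and 144 FPKM, at 3.62 (SE 0.17, adjusted p = 1.42e-05). Both were DEGs in each model, except that Heph in the UUO model was at 1.83 after median-of-ratios scaling, and Hephl1 did not pass the filter.

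Hamp was nearly absent. It was listed at 0, 0 and 0.135 FPKM in control rats, at 0, 0 and 0.0873 FPKM in adenine rats, and at the table's lowest value of 0.0001 in all sham and UUO rats. The gene passed no filter and was not tested, and without read counts no detection limit can be given. Its main source is the hepatocyte, and the 5 hepatocyte markers listed in the tables summed to no more than 2.24 FPKM in any kidney.

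Genes that act on hepcidin in the liver were also measured in the kidney. In the adenine model 8 of 10 entries of that list were tested, of which 5 rose and 2 fell, with no DEG, beside 39.6% of all tested entries that rose and 19.9% that fell. With UUO, 9 were tested, 6 rose and 1 fell, beside 56.1% and 14.4% of all entries, and 4 were DEGs, beside 17.4%. After median-of-ratios scaling 4 rose and 3 fell with adenine and 4 rose and 2 fell with UUO, and the UUO values of Bmp6 (1.85), Bmp2 (1.996) and Hfe (1.48) were under the DEG threshold. Bmp6, a bone morphogenetic protein that induces hepcidin, was at 1.15, 2.71 and 3.31 FPKM in sham rats and at 10.6, 13.0 and 13.3 FPKM in UUO rats, with a log2 fold change of 2.43 (SE 0.37, adjusted p = 0.00108 in limma), and at 1.5 (SE 0.31, adjusted p = 0.00614) in the adenine model. Bmp2, of the same family, had 2.54 in the UUO model (SE 0.29, adjusted p = 0.000311) and 1.78 in the adenine model (SE 0.26, adjusted p = 0.00127). Hfe, which binds transferrin receptors and is mutated in hereditary hemochromatosis, had 2.05 with UUO (SE 0.17, adjusted p = 8.10e-05) and 1.96 with adenine (SE 0.18, adjusted p = 0.000210). Erfe, the erythroid hormone erythroferrone, was a DEG of the UUO model at 2.52 (SE 0.49, adjusted p = 0.00321) from low levels, with 1 sham rat at 0.163 FPKM, the others listed at 0.0001, and UUO rats between 0.605 and 0.809 FPKM. The Erfe call was lost under quantile normalization (1.57, adjusted p = 0.0588). The genes of this list that fell were Smad6 (-1.60, adjusted p = 0.0121) and Id1 (-0.94, adjusted p = 0.00842) with adenine, and Hjv (-1.26, adjusted p = 0.0282) with UUO. Smad6 and Id1 did not pass with UUO, although Id1 fell there after median-of-ratios scaling (-0.54, adjusted p = 0.00777).

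Ferritin was the most abundant product of the set. Fth1 was at 4265, 3969 and 3846 FPKM in control rats and at 6067, 3813 and 5912 FPKM in adenine rats. Adenine replicate 2 lay below every control rat while the others lay above, and the log2 fold change of 0.36 (SE 0.27, adjusted p = 0.291 in limma) did not pass the test, except under quantile normalization (0.78, adjusted p = 0.0262). Fth1 was at 3415, 4709 and 3747 FPKM in sham rats and at 2098, 2196 and 1934 FPKM in UUO rats. Every UUO rat was below every sham rat, with means of 3957 ± 672 and 2076 ± 132 FPKM, and Fth1 fell by 0.92 on the log2 scale (SE 0.17, adjusted p = 0.00281). The call was lost without the filter on low values, with the log2 fold change still at -0.92 (adjusted p = 0.866), and under quantile normalization (-0.14, adjusted p = 0.546). Fth1 ranked above the 99.9 percentile of tested entries in all 12 kidneys, and since ferritin genes have many near-identical pseudogene copies, its level is uncertain where reads were shared.

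The ferritin light chain moved with the heavy chain in direction in the UUO model. Ftl1 was at 109, 180 and 135 FPKM in sham rats and at 66.7, 64.3 and 52.5 FPKM in UUO rats, with a log2 fold change of -1.19 (SE 0.19, adjusted p = 0.00149 in limma). In the adenine model Ftl1 had overlapping ranges of 111 to 185 and 146 to 187 FPKM and a log2 fold change of 0.18 (SE 0.20, adjusted p = 0.461), which turned to -0.11 after median-of-ratios scaling. Fth1 together with Ftl1 held between 0.700% and 0.763% of all FPKM in control rats and between 0.833% and 1.3% in adenine rats. The share was 0.569% to 0.784% in sham and 0.376% to 0.422% in UUO rats.

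Fth1 and Tfrc are the textbook pair of transcripts that iron regulatory proteins bind. The ratio of Fth1 to Tfrc was 310, 357 and 323 in control rats and 936, 676 and 854 in adenine rats, without overlap (exact permutation p = 0.1, two-sided, the smallest that 3 against 3 allows). In sham rats it was 279, 393 and 265 and in UUO rats 436, 483 and 331, where the ranges overlap (exact permutation p = 0.2). Of the regulators themselves, Aco1, the gene of iron regulatory protein 1 and of cytosolic aconitase, fell in both models. Its log2 fold change was -0.83 (SE 0.23, adjusted p = 0.0194 in limma) in the adenine model, from 71.3 to 111 FPKM down to 41.2 to 65.9, and -1.51 (SE 0.13, adjusted p = 0.000108) in the UUO model, from 112 to 154 down to 40.9 to 47.9 FPKM, a DEG at -2.11 after median-of-ratios scaling. The adenine call of Aco1 was lost without control replicate 3 (-0.66), adenine replicate 1 (-0.75) or adenine replicate 3 (-0.704), and with FPKM set to the same sum (-0.56). Ireb2, the gene of iron regulatory protein 2, had -0.05 (adjusted p = 0.887) and 0.18 (adjusted p = 0.519), and its sign depended on the scaling.

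**Figure D2:**
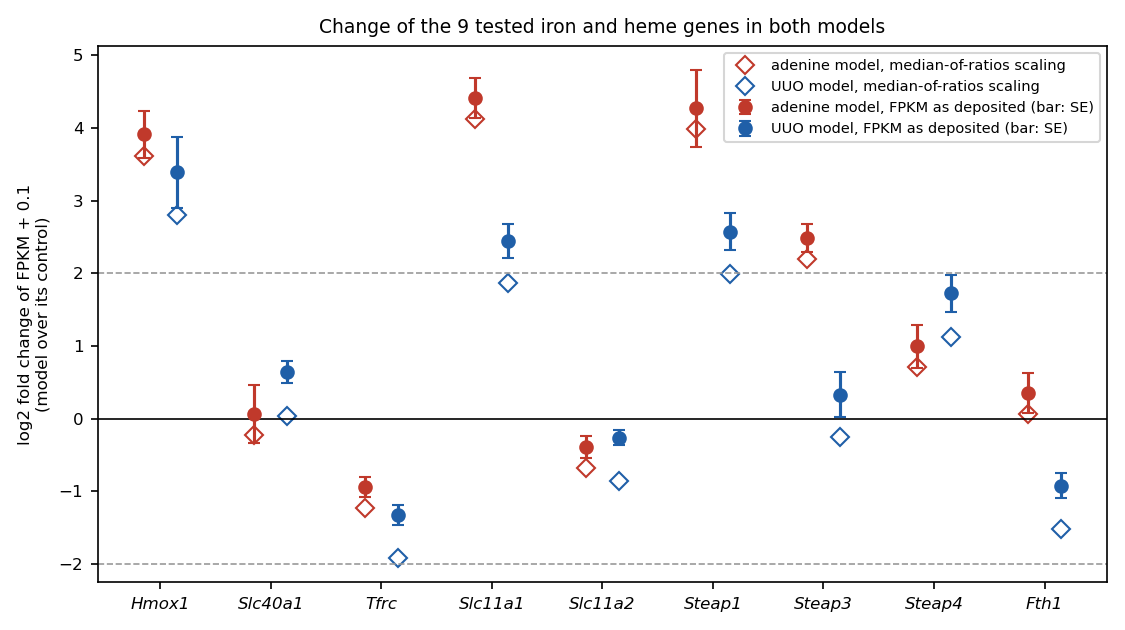
Log2 fold change of FPKM + 0.1 (vertical axis) for the 9 tested genes in the adenine model (red) and the UUO model (blue), with filled points and SE bars for the deposited FPKM, open diamonds for median-of-ratios scaling, and dashed lines at the DEG threshold of 2. Slc11a1, Steap1, Steap3 and Fth1 lie lower in the UUO model than in the adenine model, and scaling moves every point down.

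Set against each other, the models differed for 4 of the 8 members that could be compared, and 27% of the 13486 symbols compared differed. The UUO log2 fold change was lower by 1.96 for Slc11a1 (SE 0.36, adjusted p = 0.00236), by 1.28 for Fth1 (SE 0.32, adjusted p = 0.0115), by 1.69 for Steap1 (SE 0.59, adjusted p = 0.0474), and by the amount given above for Steap3. That of Steap1 missed the threshold in the most alternatives, 12 of 22, with an adjusted p of up to 0.127. These include leaving out control replicate 2 or 3, adenine replicate 2 or 3, sham replicate 2 or 3, or UUO replicate 1 or 3, with differences from -1.73 to -1.29. That of Fth1 missed it in 1 alternative, without the filter on low values (-1.28, adjusted p = 0.553). The difference was -0.52 for Hmox1 (SE 0.58, adjusted p = 0.536), 0.12 for Slc11a2 (SE 0.18, adjusted p = 0.642) and -0.39 for Tfrc (SE 0.20, adjusted p = 0.160). For Tfrc it passed after median-of-ratios scaling (-0.69, adjusted p = 0.0189) and quantile normalization (-0.71, adjusted p = 0.0191). Slc40a1, with 1 tested entry of 2 in the UUO table, was compared after the data were seen and gave 0.57 (SE 0.43, adjusted p = 0.344). The models also differ in agent, duration and sequencing table, which cannot be told apart from the lesion.

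Other genes of iron and heme handling were followed by 71 further symbols in lists by role. In the adenine model 64 of their entries were tested, of which 18 rose and 26 fell, with 5 higher and 4 lower DEGs, in a table where 39.6% of entries rose, 19.9% fell, and 10.7% and 5.03% were higher and lower DEGs. Of the UUO entries 63 were tested, 21 rose and 22 fell, and 11 were higher and 4 lower DEGs, beside 56.1%, 14.4%, 13.2% and 4.21% of all entries. After median-of-ratios scaling, 14 rose and 30 fell in the adenine model and 15 rose and 33 fell in the UUO model.

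Among the listed iron and heme genes, the largest fitted log2 fold change in both models was on a side route of iron entry. Lcn2, which encodes the siderophore-binding protein lipocalin 2 (NGAL) and is a known marker of tubular injury, was at 2.68, 6.28 and 2.50 FPKM in control rats and at 399, 538 and 529 FPKM in adenine rats. It was at 6.45, 8.04 and 3.88 FPKM in sham rats and at 337, 447 and 363 FPKM in UUO rats. The groups lie far apart in both tables, with log2 fold changes of 7.08 (SE 0.35, adjusted p = 2.96e-05 in limma) and 5.99 (SE 0.26, adjusted p = 1.29e-05). Scara5, a ferritin receptor, went from between 0.0708 and 0.220 to between 0.849 and 2.05 FPKM in the adenine model, at 2.71 (SE 0.44, adjusted p = 0.00198). With UUO, Scara5 went from between 0.0495 and 0.158 to between 3.88 and 14.9 FPKM, at 5.10 (SE 0.52, adjusted p = 0.000180). By the ratio of mean FPKM, without the added 0.1, Cd163, described below, was raised more than Lcn2 in both models. Cd163 was 291-fold higher with adenine and 200-fold with UUO, against 128-fold and 62.5-fold for Lcn2. Scara5 was 75.7-fold higher with UUO by that ratio.

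Of the 10 uptake and transport entries tested in the adenine model 5 rose and 3 fell, beside 39.6% and 19.9% of all entries. After scaling 4 rose and 3 fell. Of 9 in the UUO model 4 rose and 2 fell, beside 56.1% and 14.4% of all entries, or 4 and 4 after scaling. Lrp2, the gene of megalin, which takes up filtered proteins in the proximal tubule, went from 129, 99.9 and 105 FPKM in control rats to 6.61, 35.6 and 18.4 FPKM in adenine rats. Its log2 fold change was -2.75 (SE 0.56, adjusted p = 0.00521 in limma), and -2.09 (SE 0.15, adjusted p = 4.69e-05) in the UUO model, from between 164 and 175 to between 31.6 and 46.0 FPKM. Cubn, which encodes the partner receptor cubilin, did not pass the test, at -0.34 and -0.48, although its UUO value passed after median-of-ratios scaling (-1.08, adjusted p = 0.0152). Slc39a8, the gene of the metal importer ZIP8, fell by 1.74 (SE 0.32, adjusted p = 0.00338) and by 2.67 (SE 0.19, adjusted p = 4.66e-05) on the log2 scale, the second being a DEG, and the first becoming one after scaling (-2.03). Its relative Slc39a14 (ZIP14), an importer of iron not bound to transferrin, rose in both models, at 1.95 and 1.66.

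Mitochondria use iron for heme and for iron-sulfur clusters, and no gene of the cluster list rose in either model. Of 15 entries tested in the adenine model, 11 fell, beside 19.9% of all entries, and of 14 in the UUO model, 8 fell, beside 14.4%. After median-of-ratios scaling 13 and 12 fell. Nfs1, the cysteine desulfurase that supplies sulfur to the clusters, was at 210, 178 and 154 FPKM in control rats and at 23.9, 66.0 and 38.5 FPKM in adenine rats in its first entry, with a log2 fold change of -2.19 (SE 0.35, adjusted p = 0.00197 in limma). Its second entry gave -2.73 (SE 0.21, adjusted p = 0.0001), and in the UUO model the first entry gave -2.43 (SE 0.11, adjusted p = 1.33e-05), while the second was listed at 0.0001 in 4 of 6 rats and was not tested. Iscu, the scaffold of cluster assembly, fell by 1.17 and 1.03, and Fdx1, a ferredoxin, fell by 1.37 and 1.04. The mitochondrial importer gene Slc25a37 (mitoferrin 1) had 0.50 and -0.03 and did not pass, although its UUO value did after scaling (-0.61, adjusted p = 0.0259).

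Of 9 heme synthesis genes, all of which were tested, 5 fell in the adenine model and none rose, and in the UUO model 5 fell and 1 rose, beside 19.9% and 14.4% of all entries that fell. After median-of-ratios scaling 6 fell with adenine and 7 with UUO, and none rose. Alad, which forms porphobilinogen, fell by 1.43 and 1.08, and Ppox, a late step, by 1.19 and 0.79. Alas1, the rate-limiting enzyme outside red cells, had -0.23 and did not pass in the adenine model, and fell by 0.80 in the UUO model. Cpox had -0.61 without passing in the adenine model and rose, at 0.73, in the UUO model. After scaling Cpox fell with adenine (-0.90, adjusted p = 0.0211), and its UUO call was lost (0.14, adjusted p = 0.603). Fech, which inserts the iron, passed in neither, at -0.03 and -0.17, except for its UUO value after scaling (-0.77, adjusted p = 0.00124).

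In heme breakdown and transport, 6 of 14 genes rose and 4 fell in each model. Of all adenine entries 39.6% rose and 19.9% fell, and of all UUO entries 56.1% and 14.4%. After scaling 4 rose and 4 fell with adenine, and 5 rose and 4 fell with UUO. Cd163, the hemoglobin and haptoglobin receptor of macrophages, was at 0.0481, 0.0136 and 0.0210 FPKM in control rats and at 5.63, 9.31 and 9.15 FPKM in adenine rats, a log2 fold change of 5.97 (SE 0.29, adjusted p = 2.81e-05 in limma). Cd163 was listed at 0.0001 in 2 sham rats and at 0.0348 FPKM in the other, and at 3.83, 1.36 and 1.82 FPKM in UUO rats, with 4.33 (SE 0.44, adjusted p = 0.000184). Both fitted values rest on controls under the added 0.1 FPKM, which makes them smaller than the ratio of the means. Hpx, the heme scavenger hemopexin, was a DEG of the UUO model at 2.44 (SE 0.28, adjusted p = 0.000299), from between 0.192 and 0.249 to between 1.26 and 1.95 FPKM, but at 1.94 after scaling, and had 0.44 (adjusted p = 0.157) in the adenine model. Hebp2, a heme-binding protein, had 1.99 with adenine (SE 0.16, adjusted p = 0.000116) and 2.23 with UUO (SE 0.20, adjusted p = 0.000110), the latter a DEG that scaling moved to 1.64. Abcg2, a porphyrin and urate exporter of the apical membrane, fell in both, by 2.54 (SE 0.33, adjusted p = 0.000842) in the adenine model and by 1.72 (SE 0.13, adjusted p = 6.38e-05) in the UUO model, where scaling made it a DEG at -2.32.

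**Figure D3:**
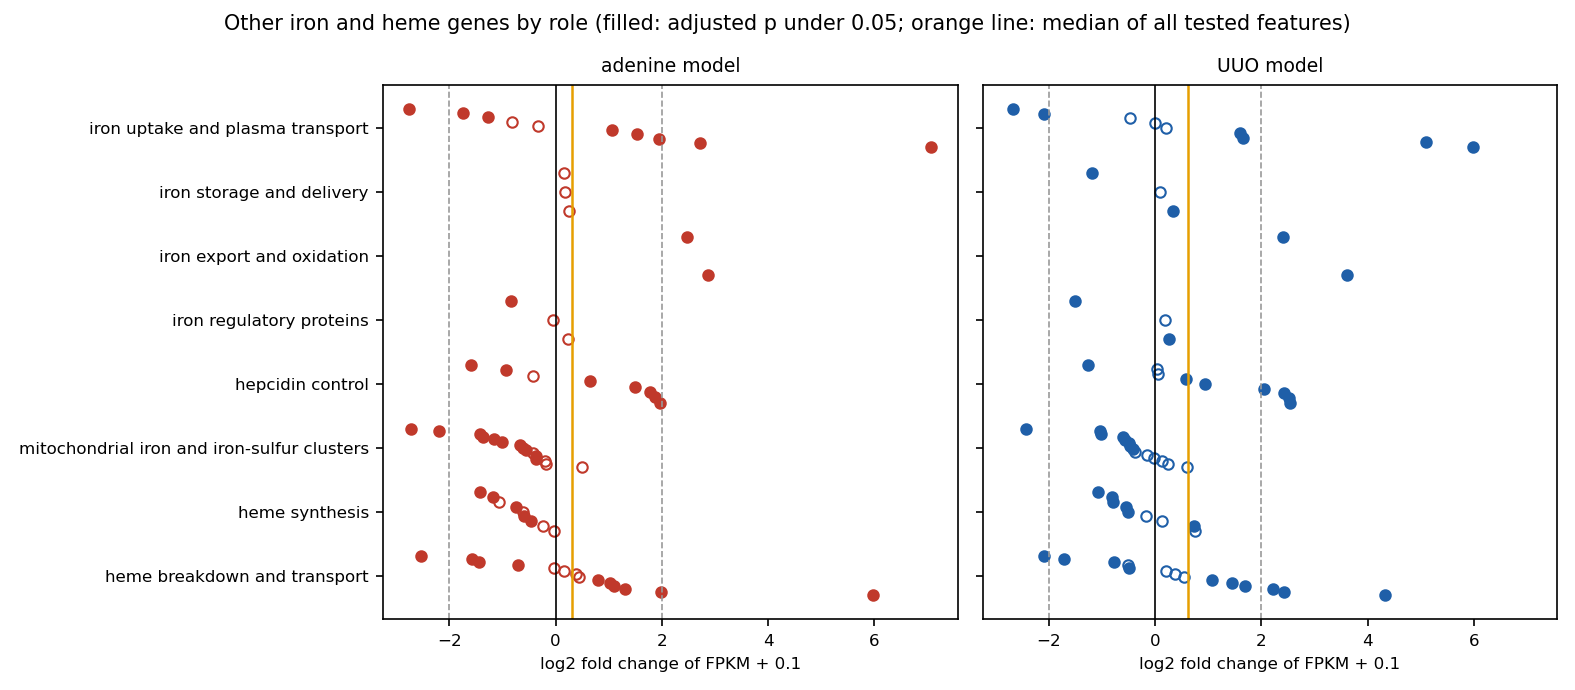
Log2 fold change of FPKM + 0.1 (horizontal axis) of the tested entries of the other iron and heme genes, grouped by role (vertical axis), in the adenine model (left) and the UUO model (right). Filled points passed an adjusted p under 0.05, dashed lines mark the DEG threshold of 2, and the orange line marks the median of all tested entries, 0.30 and 0.62; points of the mitochondrial and heme synthesis rows lie mostly left of that line, and ferroxidase points lie right of 2.

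Markers of several cell types changed in the same kidneys. All 11 macrophage markers were higher DEGs in both models, and their summed FPKM went from between 67.5 and 73.6 in control to between 1326 and 1817 in adenine kidneys, and from between 71.9 and 88.3 in sham to between 792 and 1190 in UUO kidneys. Hmox1, Slc11a1 and Cd163, all made by macrophages, rose in both models. Slc40a1 had no call in the adenine model and lost its UUO call with scaling. Summed neutrophil markers went from between 1.14 and 2.49 to between 14.1 and 26.5 FPKM in the adenine model. In the UUO model, where some were listed at the lowest value, they went from between 0.304 and 1.57 to between 6.91 and 38.0 FPKM. The largest means were of S100a9 (11.7 FPKM in adenine, 11.3 in UUO kidneys) and S100a8 (5.97 and 5.19). Of 6 markers, 3 were tested with adenine and 4 with UUO, all higher DEGs. Mpo and Elane were tested in neither, and their groups overlapped. The 8 proximal tubule markers summed to between 1533 and 2796 FPKM in control and between 72.2 and 365 in adenine kidneys. Their sum was between 1811 and 2730 in sham and between 117 and 330 in UUO kidneys. Not every marker followed the sum. Of the 8, 5 fell and 1 rose in the adenine model, and 5 fell and none rose in the UUO model. Lrp2, which fell in both, and Cubn are among the 8 and were also counted above as iron uptake genes. The marker that rose with adenine was Slc5a12, a DEG with a log2 fold change of 3.998 (adjusted p = 0.0130 in limma). Slc5a2 was at 2.78 in that model and did not pass the test. The 8 thick limb, distal tubule and collecting duct markers also summed lower. They went from 1698 to 2503 down to 222 to 458 FPKM with adenine. With UUO they went from 2693 to 3358 down to 151 to 307 FPKM. Of them 5 fell with adenine, all 8 with UUO, and none rose. Sums of 5 podocyte markers were 31.9 to 203 FPKM in control and 29.7 to 68.1 in adenine kidneys. They were 130 to 206 in sham and 64.9 to 106 in UUO kidneys. In each model 1 podocyte marker fell, and 1 rose with UUO. Erythroid markers, several of them hemoglobin genes that share reads, summed to 1120 to 2058 FPKM in control and 214 to 856 in adenine kidneys. With 6 symbols listed in place of 7, they summed to 1363 to 1922 in sham and 865 to 6530 in UUO kidneys. Slc4a1, also counted among the collecting duct markers, was a lower DEG in both models, at -3.89 and -2.85. The hemoglobin entries had no call with UUO, at 0.33 to 0.64. Alas2 is also on the heme synthesis list. The part of these cells in the changes of the iron genes was not tested.

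**Figure D4:**
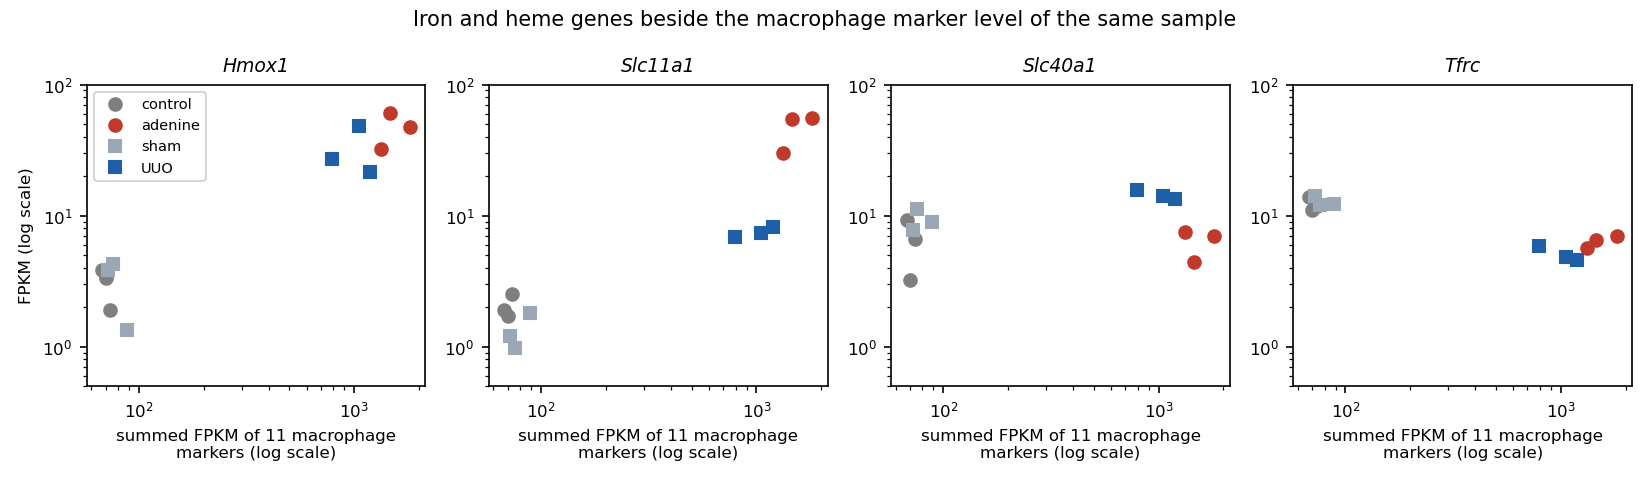
FPKM of Hmox1, Slc11a1, Slc40a1 and Tfrc (vertical axes, log scale) against the summed FPKM of 11 macrophage markers (horizontal axes, log scale) in each rat, with circles for the control and adenine table and squares for the sham and UUO table. The marker sum lies at 88.3 or below in control and sham rats and at 792 or above in adenine and UUO rats; at those high sums Slc11a1 lies between 30.0 and 55.8 in adenine rats and between 6.90 and 8.19 in UUO rats, levels of 2 separately made tables.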

How the data were processed

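RNA of 12 rat kidneys was sequenced by the authors as poly(A) libraries, and FPKM per gene was deposited in one table for control and adenine rats and another for sham and UUO rats. The submitters' processing notes name cutadapt 1.9, HISAT2 2.0.4, StringTie 1.3.4d, edgeR and DESeq2. The genome build is not given in the sources used here, so coordinates belong to RefSeq only. Read depth is unknown.

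Each table was fitted alone with limma 3.58.1 (lmFit, eBayes with trend) in R 4.3.3 on log2(FPKM + 0.1), for entries of at least 0.5 FPKM in 3 of 6 samples, with Benjamini-Hochberg adjustment over all tested entries. DEGs passed an adjusted p of 0.05 and changed by 2 or more on the log2 scale. The models were compared by the difference of log2 fold changes over the root of the summed squared SEs, read against t with the degrees of freedom added. Rats of a group are separate animals. Samples were grouped by their labels. Fits were tested on simulated data, and other steps used Python 3.11.15. Members and gene lists were chosen with earlier results of these data known. Named genes are all members, the list genes that were DEGs, and Tf, Ftl1, Aco1, Ireb2 and Hmox2; other list genes named as examples were chosen after their values were seen.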

Additional observations from a re-analysis of the deposited data

Results flagged for a closer look

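The log2 fold changes of 4 members differed between the models by the test of the difference. UUO minus adenine was -2.16 for Steap3, -1.96 for Slc11a1, -1.28 for Fth1 and -1.69 for Steap1. Fth1 fell in the UUO model and did not pass in the adenine model, while for Slc11a1 and Steap1 both changes were upward. Steap3 rose in the adenine model and had no call in the UUO model. The control groups, tables, agents and durations differ with the models, and their part was not tested.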

How the results depend on the processing

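The 4 adenine DEGs among the members numbered 4 under each of 15 alternatives. The 3 UUO DEGs became 1 under median-of-ratios scaling and 1 under quantile normalization. Slc11a1 (1.87 and 1.66) and Steap1 (1.99 and 1.9) came under the fold threshold of 2 there and still passed the adjusted p. Why the settings differ was not tested. Other iron and heme DEGs of the UUO model went from 15 to 9 with a pseudocount of 1. Without the filter on low values, 2 members differed between the models in place of 4. The differences of Fth1 (-1.28, adjusted p = 0.553) and Steap1 (-1.69, adjusted p = 0.0761) did not pass there.

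Under median-of-ratios scaling the sign turned for Slc40a1 (-0.22) and Ftl1 (-0.11) in the adenine model, for Steap3 (-0.26) and Ireb2 (-0.41) in the UUO model, and for the difference of Slc11a2 (-0.18). Under quantile normalization it turned for Slc40a1 (-0.33) and Hpx (-0.18) in the adenine model, for Steap3 (-0.43) and Ireb2 (-0.52) in the UUO model, and for the difference of Slc11a2 (-0.16). With the summed FPKM set equal in all samples it turned for Ireb2 (0.22) in the adenine model. Leaving out 1 rat at a time gave adenine values from -0.35 to 0.40 for Slc40a1, from -0.015 to 0.35 for Ftl1 and from -0.23 to 0.22 for Ireb2. None of these passed the test as deposited.

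Same-numbered samples did not deviate together in the adenine table (correlations from -0.12 to -0.05). In the UUO table their correlations were low, 0.05 to 0.11, but above those of differently numbered samples, -0.08 to 0.02. The labels name no pairs, and the main fits left the number out. With a replicate block, 6 adenine and 8 UUO entries of members passed, and 3 differed between the models. The adenine call of Aco1 was lost with the block, its log2 fold change still -0.83 (adjusted p = 0.0528 in limma), Slc11a2 passed in the UUO model (adjusted p = 0.0494), and the difference of Steap1 did not pass (adjusted p = 0.0850). The fold changes of genes at low FPKM depend on the added 0.1, and depth limits are unknown.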
